A study of Schizosaccharomyces pombe with 2 samples.

Results

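The Rpl30 pair of fission yeast, Schizosaccharomyces pombe, consists of rpl3001 (SPAC9G1.03c) and rpl3002 (SPAC1250.05), the genes that encode eL30, a protein of the large ribosomal subunit. They are 2 of the 1144 genes counted, and were picked out by systematic ID from both count tables. The pair was chosen by the measured unspliced percentages of its copies, so these percentages and the gap between the copies are given as a description. The assay was multiplexed primer extension sequencing, MPE-seq. It copies RNA into cDNA from a pool of gene-specific primers set next to introns, so that reads can report on splicing. Both libraries, replicate 1 and replicate 2, belong to 1 group, the Bioneer WT strain. It was started from a colony in YES, a rich medium, kept at 30 °C and taken in log phase at an optical density (OD600) of 0.8. There is no mutant or treated group, and nothing in the labels ties each library to a culture of its own, so the spread between them may be technical. Replicate 1 held 5796068 exonic, 634306 mature and 53090 premature counts, and replicate 2 held 10009017, 1194460 and 82204. Exonic counts were thus by far the largest class in both. Going by the column names, mature counts are taken as spliced transcripts and premature counts as transcripts that still hold the intron.

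Cells make eL30 in step with the other ribosomal proteins, and most fission yeast ribosomal proteins are encoded by more than 1 gene copy. eL30 belongs to the L7Ae family of RNA-binding proteins, which recognise a bent RNA fold called the kink-turn. In budding yeast, Saccharomyces cerevisiae, the L30 protein binds such a fold in its own transcript and blocks its splicing. In fission yeast, unspliced rpl3002 RNA is known as a substrate of nuclear decay that involves the poly(A)-binding protein Pab2 and the nuclear exosome. Neither process was perturbed in these samples.

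The introns of both copies are shown because the unspliced percentage reports on them. In the RefSeq annotation of assembly ASM294v3, both genes lie on the minus strand of chromosome I and have 1 intron each, within the coding sequence. The rpl3001 gene spans chrI:1973479-1974083 and its intron of 59 nt is chrI:1973757-1973815. The rpl3002 gene spans chrI:5095073-5095879 and its intron of 246 nt is chrI:5095302-5095547. The sources used here do not give the authors' genome build, so the genes were matched by ID and not by position. Capitals mark the first 6 bases, the pentamer CTAAC nearest the 3′ end, the last 3 bases and each match to TNAAAC, all read 5′ to 3′ on the transcript strand.
rpl3001 intron: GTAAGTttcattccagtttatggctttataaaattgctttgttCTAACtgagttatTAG
rpl3002 intron: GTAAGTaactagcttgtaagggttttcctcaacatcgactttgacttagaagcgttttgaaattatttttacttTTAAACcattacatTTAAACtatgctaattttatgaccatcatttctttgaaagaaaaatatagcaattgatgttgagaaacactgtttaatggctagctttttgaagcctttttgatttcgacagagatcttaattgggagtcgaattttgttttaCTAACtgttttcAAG

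Both introns begin with GTAAGT, the first 6 bases of 35.3% of the 1078 single introns annotated for the genes counted, and of 34 of the 65 in ribosomal protein genes. Both hold CTAAC, which resembles the branch site of yeast introns, 1 time each. It is followed by 11 bases in rpl3001 and 10 in rpl3002, against a median of 10.5 over the introns that hold it (51.4% of 1078). Their GC contents were 28.8% and 30.1%, close to the median of 29.2%. The last 3 bases differ, TAG in rpl3001 and AAG in rpl3002. AAG ends 8.26% of all single introns and 2 of the 65 in ribosomal protein genes. The other is rps3001, which had a mean unspliced percentage of 0.340%. In length, 39.8% of the 1078 introns were shorter than that of rpl3001 and 90.4% were shorter than that of rpl3002. Among the 65 ribosomal protein introns these shares were 24.6% and 83.1%.

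TNAAAC is the core of the sites bound by Mmi1, a protein that directs RNAs to the nuclear exosome in fission yeast. The rpl3002 intron holds it at positions 75 and 89, counted from the intron's first base, both times as TTAAAC. The rpl3001 intron holds no match. Searched on the transcript strand only, the motif occurred in 18.3% of all 1078 introns and at least 2 times in 2.04%. Among the 77 introns of 200 to 300 nt the shares were 36.4% and 9.09%. The measured introns of that length had a median unspliced percentage of 7.53% with the motif (27 introns) and 8.80% without it (42 introns), and the 7 with at least 2 matches had a median of 9.70%. Over ribosomal protein introns of any length the medians were 1.79% with the motif (17 introns, rpl3002 included) and 0.866% without it (48 introns). These 2 sets were not matched for length. Of the 13 ribosomal protein introns of 200 to 300 nt, 7 hold the motif. The other ribosomal protein introns with at least 2 matches, in rpl702 and rpp0, were at 1.79% and 2.38%, against 50.2% in rpl3002. A match describes the letters and is not evidence of binding.

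**Figure D1:**
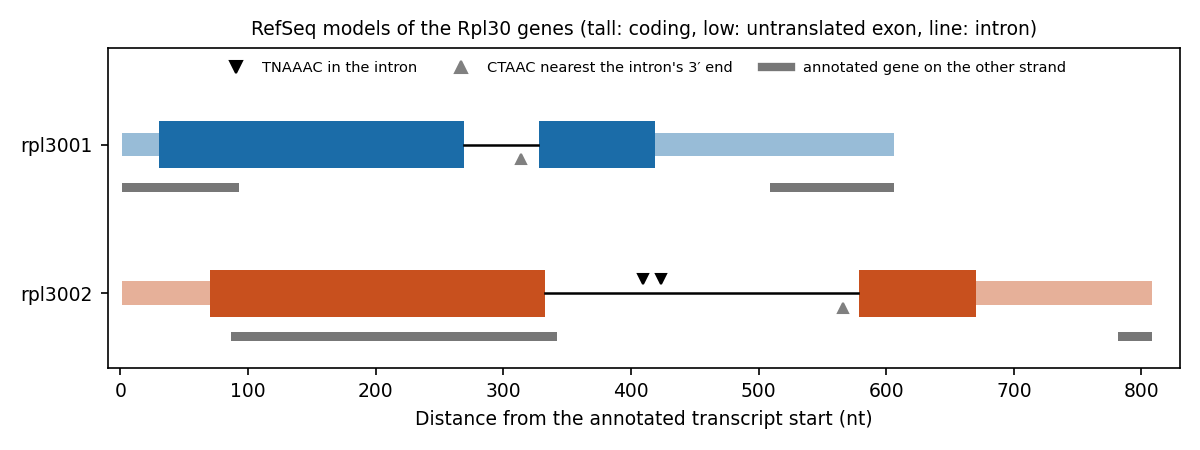
Gene models of rpl3001 and rpl3002 drawn to scale, in nt from the annotated transcript start. Boxes are exons with coding parts taller, lines are introns, triangles mark TNAAAC and the last CTAAC, and grey bars are annotated genes on the other strand; the intron of rpl3002 is 246 nt and that of rpl3001 is 59 nt.

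The copies share no long stretch of identical sequence, although their proteins are alike. The proteins have 109 and 117 residues, and 93 of 109 aligned residues are identical (85.3%). The coding sequences are identical at 69.7% of 327 aligned bases. The 60 exon bases before the junction and the 91 coding bases after it were taken as a stretch around the junction. The copies differ there at 47 of 151 positions. Below, this stretch of each spliced transcript is shown with the differing bases in capitals.
rpl3001 junction: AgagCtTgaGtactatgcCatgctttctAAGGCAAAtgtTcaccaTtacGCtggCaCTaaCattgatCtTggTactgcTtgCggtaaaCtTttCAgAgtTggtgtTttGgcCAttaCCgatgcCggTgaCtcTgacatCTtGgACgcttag
rpl3002 junction: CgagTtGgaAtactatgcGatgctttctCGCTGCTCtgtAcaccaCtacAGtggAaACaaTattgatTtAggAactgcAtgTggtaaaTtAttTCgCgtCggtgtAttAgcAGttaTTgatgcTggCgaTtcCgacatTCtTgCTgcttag

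The longest run of identical bases was 9 nt in that stretch, 12 nt in the whole spliced transcripts and 7 nt between the introns. No window of 25 nt of either gene, introns included, occurred a second time in the genome on either strand (0 of 581 windows in rpl3001 and 0 of 783 in rpl3002). Read length and the handling of reads with several alignments are not given. Genes on the other strand overlap both copies in the annotation. The kinase gene wis4 overlaps the last 97 nt of rpl3001, and a non-coding RNA its first 92 nt. In rpl3002 a non-coding RNA overlaps 255 nt, of which 9 nt lie in the intron, and another overlaps the last 26 nt. The strand setting of the counting is not given, so reads of these partners cannot be told apart, and their part in the exonic and premature counts was not tested.

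The copies had opposite orders in spliced and unspliced counts. For rpl3001, exonic counts were 44329 in replicate 1 and 80645 in replicate 2, mature counts 9627 and 17418, and premature counts 86 and 149. For rpl3002, exonic counts were 3095 and 5174, mature counts 460 and 816, and premature counts 506 and 752. In each library rpl3001 was thus far higher in the exonic and mature classes and lower in the premature class. In RNA from a whole culture, fewer cells with a transcript and less of it per cell cannot be told apart.

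Exonic counts of rpl3001 were 14.3 times those of rpl3002 in replicate 1 and 15.6 times in replicate 2. Per kilobase of annotated exon (546 and 561 nt) the ratios were 14.7 and 16.0. Mature counts stood at 20.9 and 21.3 times, and premature counts of rpl3002 at 5.88 and 5.05 times those of rpl3001. Nearly all spliced reads of the pair therefore came from rpl3001. The rpl3002 copy gave 4.56% of the pair's mature counts in replicate 1 (95% interval by Wilson's method, 4.17 to 4.99) and 4.48% in replicate 2 (4.18 to 4.78). Its part of the premature counts was 85.5% (82.4 to 88.1) and 83.5% (80.9 to 85.7). These intervals cover counting error only, since amplified reads need not be independent molecules. Each gene is read from its own primers, whose efficiency is not known, so the ratios between copies also carry that difference.

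**Figure D2:**
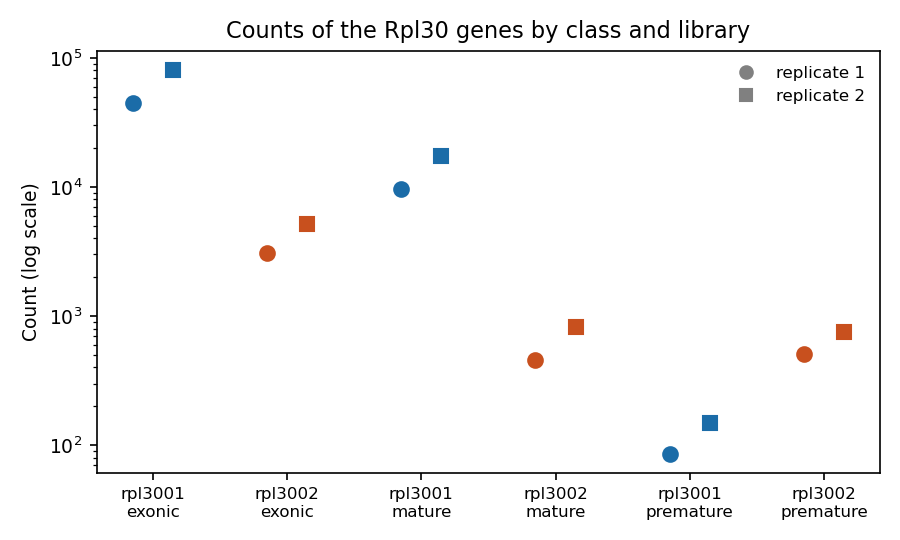
Exonic, mature and premature counts of rpl3001 (blue) and rpl3002 (orange) on a log axis, circles for replicate 1 and squares for replicate 2. The blue points lie above the orange ones for exonic and mature counts and below them for premature counts (86 and 149 against 506 and 752).

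The unspliced percentage is the premature count over the sum of mature and premature counts, and it does not compare levels between primers. In rpl3001 it was 0.885% in replicate 1 (0.718 to 1.09) and 0.848% in replicate 2 (0.723 to 0.995), a mean of 0.867% ± 0.0263 (SD, n = 2). In rpl3002 it was 52.4% (49.2 to 55.5) and 48.0% (45.5 to 50.4), a mean of 50.2% ± 3.13 (SD, n = 2). The copies were thus 51.5 and 47.1 percentage points apart, a gap of 49.3 ± 3.10. Counted together, the pair was 5.54% unspliced in replicate 1 and 4.71% in replicate 2, with most of the unspliced reads from the copy with fewer exonic counts.

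Set against exonic counts, the copies differed in both classes, but only the premature class of rpl3002 stood out among ribosomal protein genes. Mature counts equalled 21.7% and 21.6% of exonic counts in rpl3001, against 14.9% and 15.8% in rpl3002. These put rpl3002 at places 19 and 21 from the lowest of the 65 ribosomal protein genes. The median of ribosomal protein genes was 20.5% and 21.5%, close to rpl3001. Premature counts equalled 0.194% and 0.185% of exonic counts in rpl3001. In rpl3002 they equalled 16.3% and 14.5%, against a median of 0.285% and 0.215%. By this measure rpl3002 ranked 2 from the top of the 65 ribosomal protein genes in both libraries. Mature and premature counts together were 31.2% and 30.3% of exonic counts in rpl3002, rank 17 from the top in both, and 21.9% and 21.8% in rpl3001. The highest value among the 65 genes was 255% and 226%. Exonic counts are thus not a total that holds the other classes, and these percentages are ratios.

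Between the libraries the unspliced percentages of both copies moved little beside the gap between the copies. In rpl3001 the difference, replicate 2 minus replicate 1, was -0.04 points with a 95% interval from -0.28 to 0.19. In rpl3002 it was -4.42 points with an interval from -8.41 to -0.41. These intervals cover counting error only, and no test of the pair is given, since it was chosen on these percentages. Over the 864 genes with at least 50 mature and premature counts in each library, the two-sided Fisher exact test adjusted by Benjamini-Hochberg called 1.62%. Ribosomal protein genes had 9 calls among 65 and a median difference of -0.22 points, beside -0.39 points over all 864 genes. They were counted more deeply, with medians of 5176 and 9636 mature and premature counts against 187 and 291 over all 864. Not all differences in them were small, with rpl8 at 38.4% in replicate 1 and 6.62% in replicate 2. Whether the depth bears on the share called was not tested. The test compares libraries with counting noise and no conditions.

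Exonic counts were compared by a two-sided exact binomial test scaled to the library totals, over 1093 genes with at least 50 in each library. The test called 72.7% of genes, 8.78% as higher and 64% as lower in replicate 2. In rpl3001 the log2 ratio of replicate 2 over replicate 1 was 0.08 (0.06 to 0.09), called as higher at an adjusted p of 1.36e-17 by the exact test. That call was lost when the test was scaled by the median-based overdispersion between the libraries (adjusted p = 0.948), which left 29 genes called in place of 795. In rpl3002 it was -0.05 (-0.11 to 0.02), not called, with an adjusted p of 0.186 by the exact test. The median log2 ratio was -0.13 over all genes and 0.16 over 65 ribosomal protein genes, of which 55 were called as higher and 4 as lower. Both copies thus lay below the ribosomal protein median and above that of all genes. The sign for rpl3002 depended on the scaling, and was 0.08 at an adjusted p of 0.0441 with edgeR's TMM factors and 0.08 at 0.0326 with DESeq2 size factors. With them rpl3001 was at 0.20 and 0.21. The calls over all genes were 96 higher and 699 lower by totals, 246 and 164 by TMM, and 254 and 149 by DESeq2 size factors.

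Among the 65 ribosomal protein genes, all of which passed the count minimum, the copies lay far apart in the order of unspliced percentage. The median over these genes was 1.02%, against 7.63% over all 864 genes measured. The rpl3001 copy held place 29 from the lowest and rpl3002 place 63, which is place 3 from the top in the mean and in each library. Next to rpl3001 stood rpl4301 at 0.865% ± 0.167 and rps901 at 0.869% ± 0.260 (SD, n = 2), whose closeness follows from the order itself. Next below rpl3002 was rps2202, a small subunit protein gene, at 45.3% ± 0.598, with 45.7% in replicate 1 and 44.9% in replicate 2. Next above it was rpl102, a large subunit protein gene, at 58.3% ± 1.95, with 59.7% and 56.9%. These 2 neighbours were likewise taken from the order itself, and no difference between them and rpl3002 was tested. Over all measured genes, 82 of 864 had a higher mean than rpl3002 and 77 a lower one than rpl3001.

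**Figure D3:**
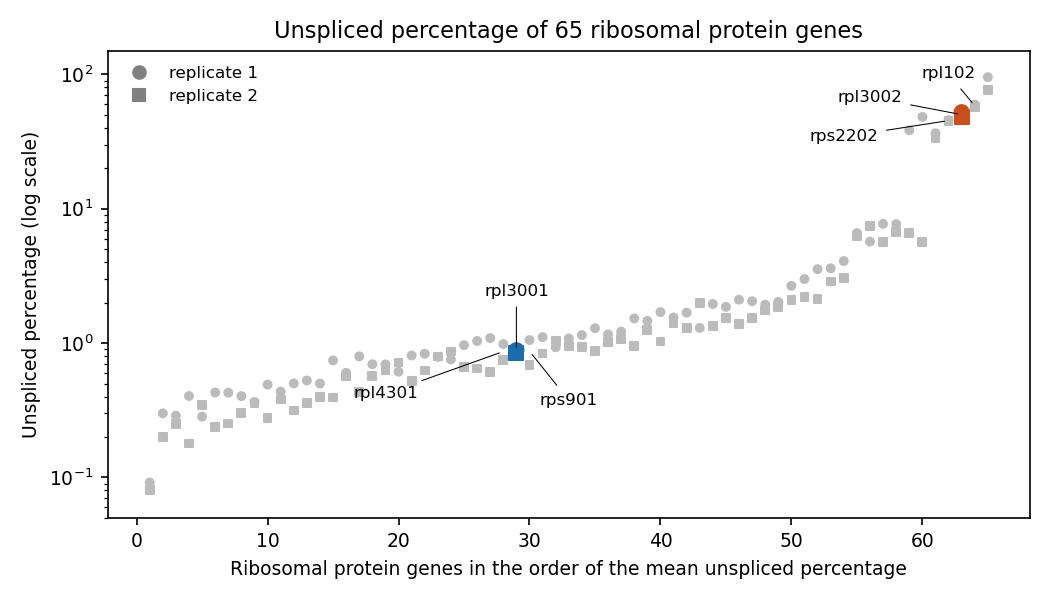
Unspliced percentage of 65 ribosomal protein genes on a log axis, in the order of their means, with circles for replicate 1 and squares for replicate 2. The rpl3001 points (blue) sit near 0.867% in the middle of the order, and the rpl3002 points (orange) near 50.2% at place 3 from the top.

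The genes most like each copy were found among those with at least 1000 mature and premature counts in each library. Likeness was the larger of the differences in unspliced percentage in the 2 libraries. For rpl3001, among 102 genes, these were rpl4302, rpl4301 and rpl4102, all of the large subunit, within 0.0961, 0.101 and 0.129 points. For rpl3002, among 103 genes, they were rps2202, rpl102 and rpl39, and the distances were larger at 6.64, 8.98 and 15.9 points. The intron of rps2202 is 147 nt, that of rpl102 is 261 nt and that of rpl39 is 62 nt.

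The gap between the Rpl30 copies ranked 2 among 23 ribosomal protein families with at least 2 measured copies, where the median gap was 1.031 points and 20 families were under 10. Next after rpl30 came rpl18, with 27.0% ± 30.1 in rpl1802 and 1.84% ± 0.128 in rpl1801, and rpl16, with 6.59% ± 1.26 in rpl1603 and 0.0860% ± 0.00807 in rpl1602. The smallest were rpl27, at 0.0239 points, and rps18, at 0.0618 points. The gap of rpl18 was 46.3 points in replicate 1 and 3.93 in replicate 2, whereas that of rpl30 was 51.5 and 47.1. The exonic counts of the copy with the lower percentage over those of the other were also most uneven in rpl30, at rank 1 of 23 in both libraries. Next in both were rpl16, at 5.40 and 6.67 times, and rpl41, at 3.80 and 4.16 times.

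**Figure D4:**
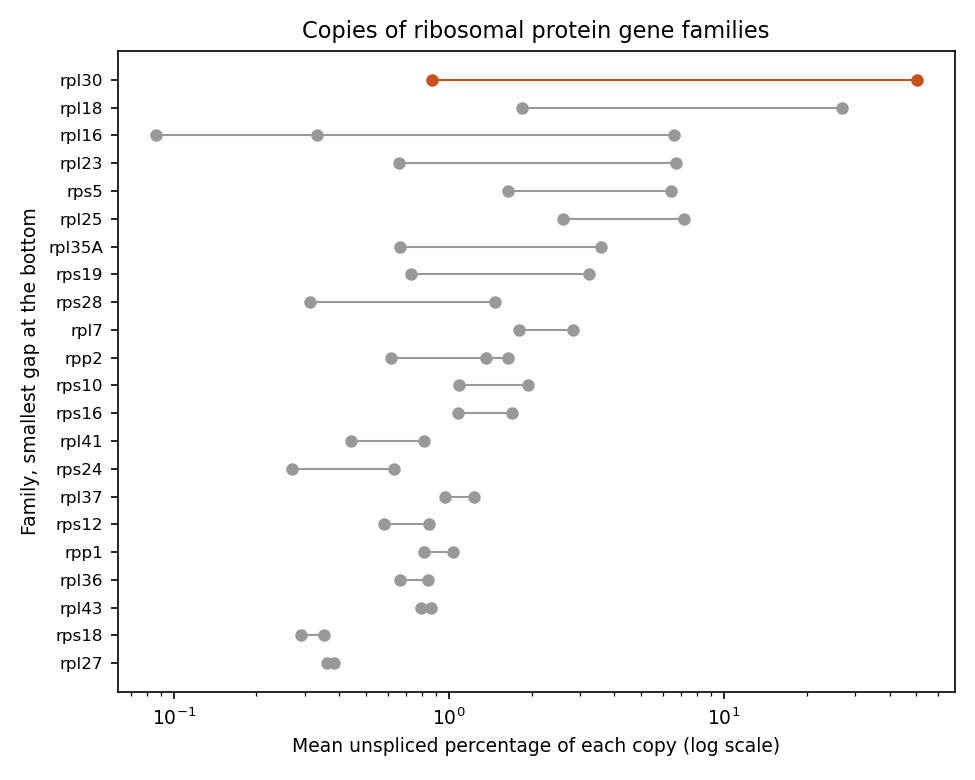
Mean unspliced percentage of each copy in the ribosomal protein families reported here, on a log axis, with a point for each copy, a line joining copies of a family and the smallest gap in percentage points at the bottom. The rpl30 copies (orange) lie at 0.867% and 50.2%, the widest gap in percentage points of the families plotted. On the log axis the rpl16 line, from 0.0860% to 6.59%, is longer.

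Most genes with introns of like length or with a like exonic level had lower unspliced percentages than rpl3002. So did 781 of all 864 genes measured, so this is not particular to those sets. Of the 13 ribosomal protein introns of 200 to 300 nt, the median was 1.95%, and rpl3002 and rpl102 were the only members over 10%. The next highest, rpl2502, was at 7.19%. Over all measured genes with 1 intron of that length, the median was 8.66% over 69 genes, and 6 of them, rpl3002 included, were at or above its value. In exonic counts rpl3002 was the lowest of all 65 ribosomal protein genes in both libraries. Per kilobase of exon it was second lowest, with 952 and 921 exonic CPM per kilobase (CPM, counts scaled to the library total), above rpl1603 at 357 and 319. Annotated exons of rpl1603 come to 2640 nt. Reads start at primers next to introns, so counts need not scale with exon length. Among 290 other measured genes whose exonic level was within 1.5-fold of that of rpl3002, the median unspliced percentage was 7.48%, and 19 were higher. Around rpl3001, 30 genes within 1.5-fold had a median of 1.36%, and 19 were higher.

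**Figure D5:**
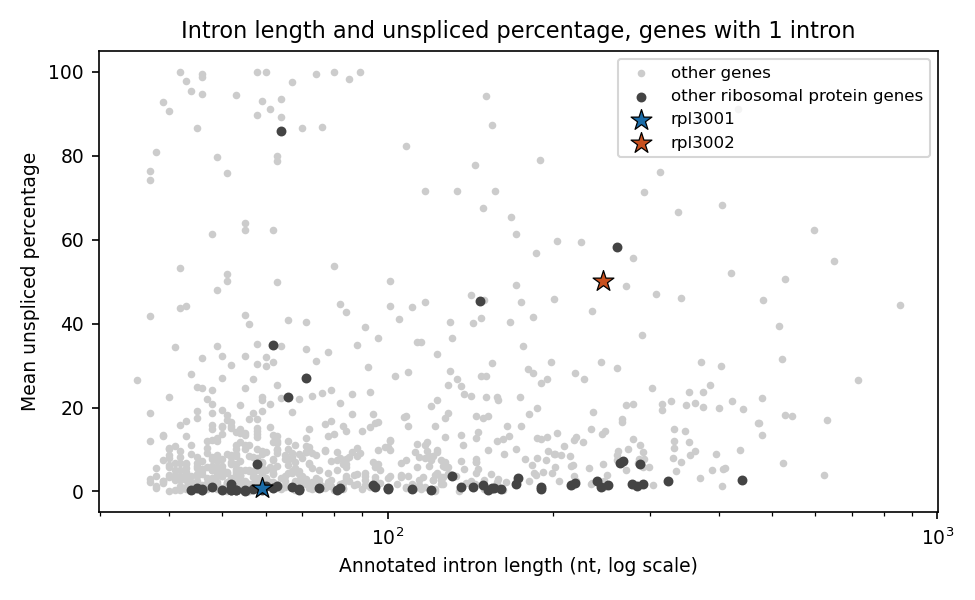
Mean unspliced percentage against annotated intron length (log axis) for genes with 1 intron, grey for other genes, black for other ribosomal protein genes and stars for the pair. The rpl3002 star (246 nt, 50.2%) lies well above most black points of like length, and the rpl3001 star (59 nt, 0.867%) lies among them.

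Other genes of the L7Ae family were mostly spliced like rpl3001. Of 5 genes listed, 4 were in the tables and all of those were measured, with a median of 0.716%. The small subunit genes rps1201 and rps1202, which encode eS12, were at 0.849% ± 0.340 and 0.582% ± 0.0256 (SD, n = 2). The snoRNP protein gene snu13 was at 0.537% ± 0.0486. The eL8 gene rpl8 was at 38.4% in replicate 1 and 6.62% in replicate 2. It was the only family member called by the Fisher exact test (adjusted p = 1.41e-306). That test called 1.62% of all 864 genes and 9 of the 65 ribosomal protein genes. All 4 family members were called as higher in exonic counts in replicate 2, as were 8.78% of all genes and 55 of the 65 ribosomal protein genes. The log2 ratios of these 4 were above 0 under each scaling. With the overdispersion 1 of the 4, rps1201, was still called as higher (adjusted p = 5.1e-11), as were 29 of all 1093 genes.

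Of 18 nuclear RNA decay genes listed, 5 were in the tables and measured, all of them parts of the exosome, with a median of 2.24%. The nuclease genes rrp6 and dis3 were at 3.14% ± 1.55 and 2.24% ± 0.307. The core subunit genes rrp42 and mtr3 were at 2.05% ± 0.166 and 1.19% ± 0.0968, and rrp46 was highest at 15.5% ± 0.269. Mature and premature counts together ran from 99 (dis3, replicate 1) to 466 (rrp42, replicate 2). Few of them were premature except in rrp46, so only a large difference between the libraries could be called. None of the 5 was called between the libraries in unspliced percentage by the Fisher exact test, which called 1.62% of all 864 genes. None was among the 89 of 864 genes with an unadjusted p under 0.05. In exonic counts scaled to the totals 4 of the 5 were called, all as lower in replicate 2, where 64% of all genes were called as lower. With the overdispersion none of the 5 was called, and 0 of 1093 genes were called as lower. With TMM and DESeq2 size factors the log2 ratio of mtr3, one of the 4, was 0.02 and 0.03 in place of -0.10, and those of rrp6, rrp42 and rrp46 stayed below 0. That of dis3, which was not called, turned from -0.01 to 0.11 and 0.12.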

How the data were processed

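MPE-seq was run on 2 wild-type libraries. The deposited tables hold raw exonic, mature and premature counts for each gene, per the file headers. Trimmomatic 0.35, HISAT2 2.1.0 and HTSeq are named, per the submitters' processing notes. Not given in the sources used here are the rules behind the count classes, the strand setting, the genome build with its annotation, and whether molecular identifiers were used. Replicates 1 and 2 are the libraries titled A and B. Genes were matched by ID to RefSeq (ASM294v3), 1141 of 1144, and gaps under 20 nt were not taken as introns. Per-gene Fisher exact and exact binomial tests used Python 3.11.15 and scipy 1.17.1 and were adjusted over all genes tested at 0.05. Both were tested on simulated counts, which held no noise between libraries beyond counting. edgeR 4.0.16 and DESeq2 1.42.0 supplied scaling factors and no test. Proteins were aligned with Biopython 1.88 (BLOSUM62). The members and lists were chosen with earlier results of these data known. Named genes were the pair, their neighbours in the order of ribosomal protein genes, the 3 genes most like each copy, the other families with the widest gaps (1 of the 3 is not reported here) and the 2 with the narrowest, and measured members of the L7Ae and nuclear decay lists. Introns and genes named outside that rule (rps3001, rpl702, rpp0, rpl2502, rpl41 and wis4) were chosen after their values were seen. Alternatives changed the denominator, count minimum, scaling, noise model and libraries used.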

Additional observations from a re-analysis of the deposited data

How the results depend on the processing

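With premature counts taken as a percentage of exonic counts, rpl3001 was at 0.189% and rpl3002 at 15.4%, a gap of 15.3 points, because exonic counts exceed the sum of mature and premature counts. The share of rpl3001 in the pair was 93.7% of exonic and 95.5% of mature counts. Leaving out each library in turn gave 0.848% to 0.885% for rpl3001, 48.0% to 52.4% for rpl3002, 47.1 to 51.5 points for the gap, 93.5% to 94.0% for the share, and place 2 among families each time. Adding 0.5 to each count or summing the libraries moved no percentage by over 1 SD, and the place among families was 2 at minimums of 20 and 200 and on the log2 odds scale. The Fisher test called 14 genes at each minimum and 8 with the median-based overdispersion of 1.56. The binomial test called 795 genes, 410 with TMM, 403 with DESeq2 size factors and 29 with an overdispersion of 29.2, which takes in the overall shift of -0.13. Under it rpl3001 was no longer called (adjusted p = 0.948). The exonic log2 ratio of rpl3002 turned from -0.047 to 0.079 with TMM and to 0.083 with DESeq2 size factors, which raise every gene. Between the copies rpl3002 has the lower depth, with 966 mature and premature counts in replicate 1 against 9713 for rpl3001. No paired analysis was possible because there is only 1 group.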

Other observations

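Across the 23 ribosomal protein families, the copy with the higher unspliced percentage had the longer intron in 14, as in rpl30, and the shorter one in 8, with 1 tie. The copy with the higher percentage also had fewer exonic counts in both libraries in 14 of 23 families, among them rpl30, rpl18 and rpl16. Over all genes counted, rpl3002 ranked 7 and 6 in premature counts in the 2 libraries and 179 and 167 in mature counts, while rpl3001 ranked 109 and 92 in premature and 11 and 15 in mature counts. These are descriptions over genes chosen with the values known, and no test was made.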
